A study of Mus musculus with 12 samples.

Results

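The lipins and the enzymes around them on the way to triglyceride were described in mouse skin as a set of 9 genes, out of 23282 gene entries counted in all. They comprised the lipin genes Lpin1, Lpin2 and Lpin3, the phosphatidate phosphatases listed under their earlier symbols Ppap2a, Ppap2b and Ppap2c (now Plpp1, Plpp3 and Plpp2), the diacylglycerol acyltransferases Dgat1 and Dgat2, and the glycerol-3-phosphate acyltransferase Gpam. A gene belonged to the set when its symbol matched one of these names, and each of the 9 symbols was found. Lpin1 was picked because its count had been seen to be lower in the obese mice, so its difference is given as a description without a test. The other 8 were chosen by function.

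Triglyceride is built on a glycerol backbone in consecutive steps. Gpam, in the outer mitochondrial membrane, adds the first fatty acid to glycerol-3-phosphate, and the product is acylated again to phosphatidate. Lipins remove the phosphate of phosphatidate and yield diacylglycerol, from which Dgat1 and Dgat2 make triglyceride. Lipins leave the cytosol for the endoplasmic reticulum membrane to do so, and Lpin1 can also enter the nucleus, where it acts together with transcription factors of fatty acid metabolism. The Ppap2 enzymes span the membrane and act mostly on lipid phosphates at the outer cell surface, lysophosphatidate and sphingosine-1-phosphate among them. In skin, triglyceride is made in sebaceous glands and in the fat layer under the dermis, and the epidermis also uses these lipids for its barrier.

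Both groups were wild-type (WT) male C57BL/6J mice, aged 5 weeks at the start, whose skin was treated with 0.5% 2,4-dinitrochlorobenzene (DNCB) 3 times a week for 6 weeks to raise lesions that resemble atopic dermatitis (AD). DNCB is a hapten that provokes contact allergy. The AD group (5 mice) ate normal chow, and the HF + AD group (7 mice, labelled AD+OB) ate a high-fat diet for 4 weeks before DNCB and for 10 weeks in all. Samples were taken after a fast, and DNCB and fasting were common to both groups. Skin without DNCB was not analysed here, so the comparison is of the diets in DNCB-treated skin only. A change that the diet makes in any skin cannot be told apart from one that it adds to the lesion. A library of mRNA 3′ ends was made for each mouse.

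Sequence upstream of the transcription start is shown for the 3 members whose levels differed most between the groups, because these are the genes the results turn on. RefSeq starts were matched for 6 of the 9 members, with 10 starts in all, and none for Ppap2a, Dgat1 and Dgat2. Each stretch covers the 250 bases before a start on GRCm38.p6, 5′ to 3′ on the strand of the gene, in lower case, with any motif match in capitals. The Lpin1 stretch is chr12:16610967-16611216 (minus strand), the Ppap2b stretch is chr4:105157097-105157346 (plus strand), and those of the Gpam starts are chr19:55127239-55127488 and chr19:55099478-55099727 (minus strand).
Lpin1: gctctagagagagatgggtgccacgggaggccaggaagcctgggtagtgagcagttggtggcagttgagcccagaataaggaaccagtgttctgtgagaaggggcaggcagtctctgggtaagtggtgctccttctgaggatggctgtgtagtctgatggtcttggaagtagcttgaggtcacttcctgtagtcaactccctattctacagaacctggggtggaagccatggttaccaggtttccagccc
Ppap2b: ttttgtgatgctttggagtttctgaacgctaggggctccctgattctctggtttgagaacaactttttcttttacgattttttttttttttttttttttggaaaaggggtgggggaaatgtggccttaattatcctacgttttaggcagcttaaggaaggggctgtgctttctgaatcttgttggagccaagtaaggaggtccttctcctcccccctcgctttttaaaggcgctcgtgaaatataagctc
Gpam, start 1: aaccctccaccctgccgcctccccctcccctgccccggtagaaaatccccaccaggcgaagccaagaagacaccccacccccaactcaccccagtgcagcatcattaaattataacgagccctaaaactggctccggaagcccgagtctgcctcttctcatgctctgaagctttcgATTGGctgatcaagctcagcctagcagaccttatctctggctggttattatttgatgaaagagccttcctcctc
Gpam, start 2: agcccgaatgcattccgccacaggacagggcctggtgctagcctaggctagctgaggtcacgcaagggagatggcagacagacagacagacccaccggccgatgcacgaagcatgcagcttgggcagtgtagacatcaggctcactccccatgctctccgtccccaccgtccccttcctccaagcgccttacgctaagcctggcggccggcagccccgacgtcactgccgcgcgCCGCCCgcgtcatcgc
Motifs were searched on both strands, and their share among 32851 mouse promoters of the same length is given with each. The E-box, a site of basic helix-loop-helix factors, was searched as CACGTG and was held by 6.02% of them. The sterol element known from targets of the sterol response factors was searched as TCACNCCAC and was held by 1.05%. The remaining motifs were general promoter elements, of which the CCAAT box was held by 33.8%, the TATA box (searched as TATAAA) by 12.4% and the GC box, whose letters were taken as GGGCGG, by 32.7%. In Gpam, the capitals mark CCAAT read from the other strand, beginning 74 bases before start 1, and the GC box read from the other strand, beginning 16 bases before start 2. Neither the Lpin1 nor the Ppap2b stretch held any of the 5 motifs. GC content was 54.8% for Lpin1, 42.4% for Ppap2b, 54.8% for Gpam start 1 and 66% for start 2. Reads from mRNA 3′ ends do not tell which start was used.

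Between 9746937 and 13462434 reads were counted on genes per mouse. Levels are given as CPM, reads on a gene per 1000000 reads on the genes kept by the filter on low counts. Those totals were scaled by the trimmed mean of M-values (TMM). All 9 members passed the filter on low counts, with 14163 genes. The number of genes with at least 1 read, counted per mouse, was lower in AD (13100 to 15063) than in HF + AD (15522 to 16677). Pearson's r between libraries across genes lay between 0.929 and 0.977 within AD and between 0.976 and 0.989 within HF + AD. With edgeR's quasi-likelihood test and Benjamini–Hochberg adjustment over all genes tested, 1303 genes (9.20%) had an adjusted p under 0.05, 627 of them higher (4.43%) and 676 lower (4.77%) in HF + AD. That count fell to 639, 686 and 794 without HF + AD mouse 2, 1 or 4, and to 803 without AD mouse 2. The higher share was 48.1% of the called genes, and 59.1% when libraries were scaled by their totals alone. Krt5, a keratin of the basal epidermis, was at 2234 CPM or more in every mouse.

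Among the 8 members chosen by function, Ppap2b alone passed the test, with a level 2.11-fold higher in HF + AD. Gpam was lower in each of the 7 HF + AD mice than in any AD mouse but did not pass after adjustment over all genes. Lpin1 showed the same kind of separation, by a narrow margin. Non-overlap in either direction was found in 5.46% of all genes tested. No call was made for Lpin2, Lpin3, Ppap2a, Ppap2c, Dgat1 or Dgat2. The 1 call among 8 genes (adjusted p under 0.05) stands beside the 9.20% called among all genes tested.

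**Figure D1:**
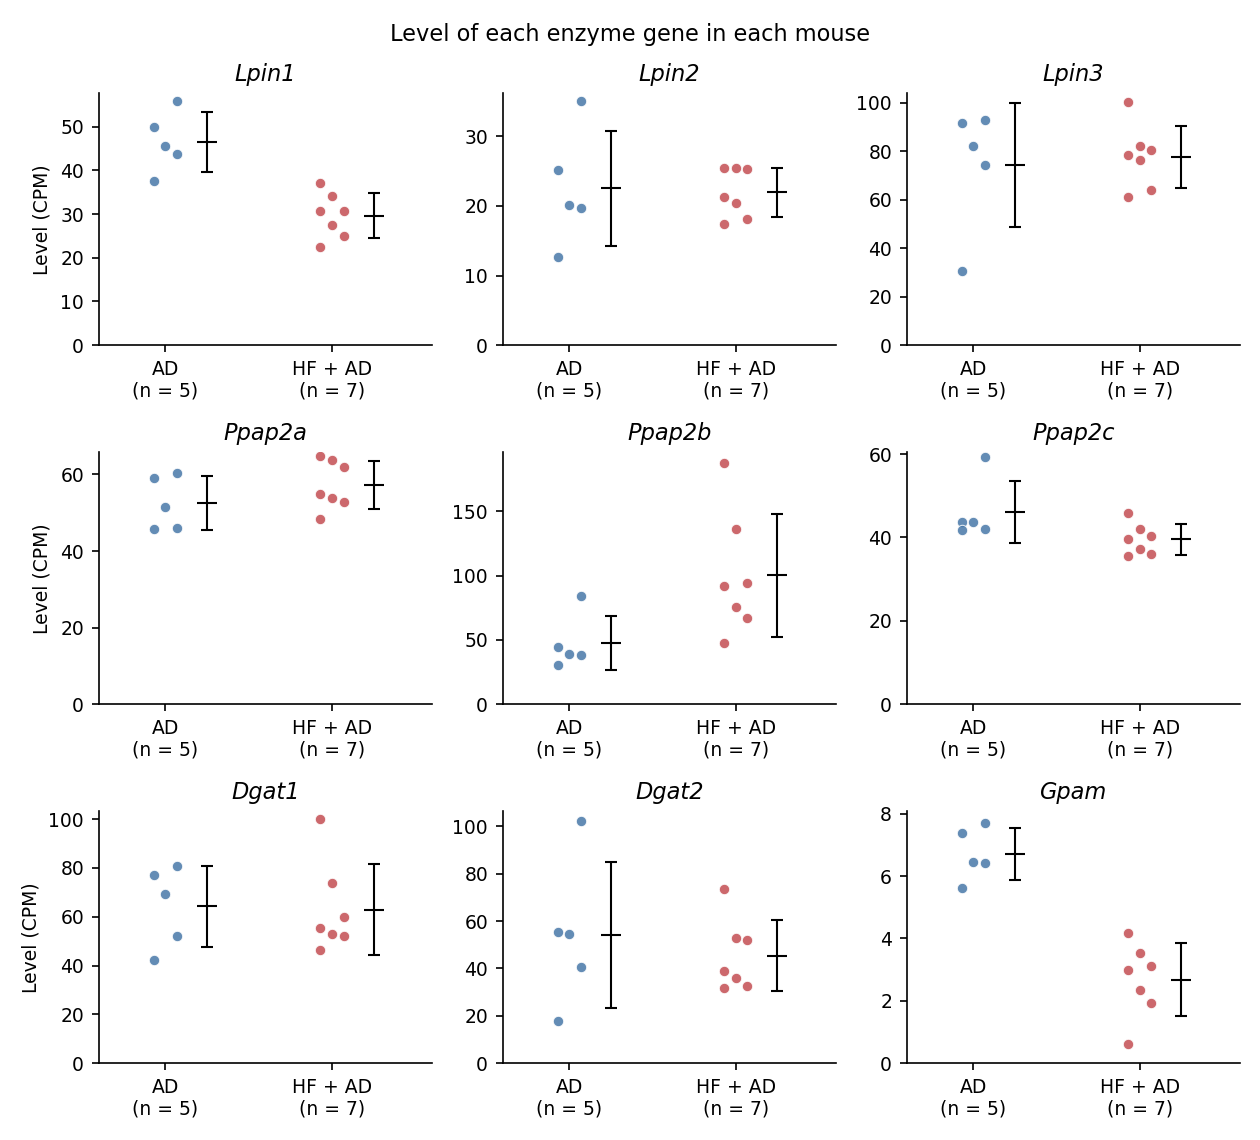
Levels of the 9 members in single mice. Each panel shows one gene, with CPM on a linear axis starting at 0, 1 dot per mouse (5 AD, 7 HF + AD; sideways position only separates the dots), and the mean with its SD as a line and bar; the HF + AD dots lie below all AD dots for Lpin1 and Gpam, and Ppap2b in HF + AD spreads from 47.6 to 188 CPM.

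Lpin1, on chromosome 12 (16535669 to 16610966, minus strand, GRCm38), encodes the lipin best known from fat, muscle and liver. Its level was 49.9, 55.9, 37.6, 43.8 and 45.5 CPM in AD mice 1 to 5. In HF + AD it ranged from 22.4 to 37.2 CPM with a median of 30.6. The groups did not overlap, but the lowest AD mouse and the highest HF + AD mouse nearly touched. The means were 46.6 ± 6.87 CPM (SD, n = 5) and 29.6 ± 5.12 CPM (SD, n = 7), a log2 fold change of -0.65, or 1.57-fold lower. Leaving out single mice moved it between -0.72 and -0.57. Of all genes tested, 2.56% were lower in HF + AD without overlap, and nothing is read from that share for a gene picked by its fall. In bulk skin, fewer cells of a type and less RNA per cell cannot be told apart.

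Markers of skeletal muscle and fat, which can hold Lpin1, were read in the same mice. Of 12 skeletal muscle markers, 11 were lower in HF + AD, 2 of them called, beside 4.77% of all genes tested called lower. The summed level of the 12 was 1436 to 3119 CPM in AD and 907 to 2299 CPM in HF + AD. Acta1, the skeletal actin, had a median of 686 CPM in AD and 384 CPM in HF + AD. Across the AD mice the muscle sum and Lpin1 had the same order, from mouse 2 (3119 CPM, with Lpin1 at 55.9 CPM) through mice 1, 5 and 4 down to mouse 3 (1436 CPM, with Lpin1 at 37.6 CPM). In HF + AD the order was not the same, since mice 7 and 3 had the lowest muscle sums (907 and 958 CPM) and the highest Lpin1 levels of their group (37.2 and 34.1 CPM). Mice 7 and 3 also had the highest adipocyte sums of that group (571 and 325 CPM). Here too the order was not kept, since mouse 1 came close to mouse 3 (311 CPM) with the lowest Lpin1 (22.4 CPM). Adipocyte markers, 7 of 8 tested, were higher for 3 and lower for 4, with no call, and their sum ran from 104 to 735 CPM in AD and from 99.9 to 571 CPM in HF + AD. None of the markers of either list was at 0 throughout a group, and their part in the Lpin1 level was not tested.

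Lpin2 (chromosome 17, 71182560 to 71249817, plus strand) and Lpin3 (chromosome 2, 160880670 to 160906002, plus strand) encode the other lipins, which act on the same substrate. Lpin2 measured 35.0, 25.2, 20.1, 12.7 and 19.6 CPM in AD mice 1 to 5, and 17.5 to 25.5 CPM with a median of 21.3 in HF + AD. All HF + AD mice lay inside the AD range. The log2 fold change was -0.038 (95% interval -0.54 to 0.47, edgeR adjusted p = 0.948), and its sign turned in other fits, with 0.015 after scaling by totals alone. Lpin3 measured 30.8, 91.6, 92.9, 74.5 and 82.0 CPM in AD mice, with mouse 1 far below the rest, and 61.2 to 100.3 CPM with a median of 78.6 in HF + AD. Its log2 fold change was 0.063 (95% interval -0.40 to 0.52, edgeR adjusted p = 0.899), and it was -0.13 without AD mouse 1. Whether the lipins differed from each other in their response was not tested.

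Ppap2b, on chromosome 4 (105157347 to 105232764, plus strand), encodes a surface phosphatase of lysophosphatidate. It measured 84.1, 39.2, 30.8, 44.6 and 38.5 CPM in AD mice 1 to 5. In HF + AD the lowest mouse had 47.6, the median 91.9 and the highest 188 CPM. AD mouse 1 stood above its group and overlapped with HF + AD, whereas 4 of the 7 HF + AD mice were above all AD mice. The means were 47.4 ± 21.1 CPM (SD, n = 5) and 100.1 ± 47.5 CPM (SD, n = 7), with a log2 fold change of 1.08, a standard error of 0.311 and a 95% interval from 0.42 to 1.73. The edgeR adjusted p was 0.0389, and a two-sided exact permutation test on log2(CPM + 1), over all splits of the 12 mice into 5 and 7, gave p = 0.0215. Such permutation tests were run on 8 members, and their p-values are not adjusted.

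The Ppap2b call depended on which mice were included. It was lost when any of AD mice 2 to 5 or HF + AD mice 1, 2, 4 or 7 was left out (edgeR adjusted p between 0.0557 and 0.0882, log2 fold change between 0.85 and 1.09). Without AD mouse 1 the log2 fold change was 1.39 (edgeR adjusted p = 0.0114). The study's picture of its pathway network, drawn from genes higher in these same mice, shows Ppap2b under the symbol Plpp3, so its direction is no independent evidence. AD mouse 1 was also the AD mouse with the largest fibroblast marker sum, 8573 CPM against 2975 CPM in the lowest AD mouse. HF + AD mice 1 and 2, with the highest Ppap2b, had fibroblast sums of 2627 and 3537 CPM, below the AD median of 4162 CPM. The macrophage marker sum was highest in the mice with the highest Ppap2b of each group, at 41.7 CPM in AD mouse 1, 78.1 CPM in HF + AD mouse 2 and 56.3 CPM in HF + AD mouse 1. It was lowest of its group, at 16.1 CPM, in HF + AD mouse 5, which also had the lowest Ppap2b of that group (47.6 CPM). Between these extremes the order was not kept. HF + AD mouse 4 had a macrophage sum of 19.9 CPM with Ppap2b at 94.1 CPM, and mouse 3 had 38.2 CPM with Ppap2b at 67.2 CPM. Of the 5 macrophage markers, 4 were higher in HF + AD, none was called by edgeR, and their part in the Ppap2b level was not tested.

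Ppap2a (Plpp1; chromosome 13, 112800792 to 112867894, plus strand) and Ppap2c (Plpp2; chromosome 10, 79526430 to 79533796, minus strand) encode relatives of Ppap2b with overlapping substrates. Ppap2a measured 60.4, 51.6, 46.1, 59.1 and 45.6 CPM in AD mice 1 to 5, and 48.3 to 64.8 CPM with a median of 54.9 in HF + AD. The groups overlapped widely, and the log2 fold change was 0.12 (95% interval -0.18 to 0.42, edgeR adjusted p = 0.650). Its exons share 452 bases with exons of Mtrex on the opposite strand, and since the strand setting of the counting is not given in the sources used here, reads of both may be mixed. Ppap2c measured 43.7, 41.7, 43.6, 42.1 and 59.2 CPM in AD mice, and 35.6 to 46.0 CPM with a median of 39.5 in HF + AD. AD mouse 5 stood above all other mice, and 5 of 7 HF + AD mice were below all AD mice. The log2 fold change of Ppap2c was -0.22 (95% interval -0.54 to 0.098, edgeR adjusted p = 0.394), while the two-sided exact permutation test on log2(CPM + 1) gave p = 0.0366. The unadjusted edgeR p of Ppap2c was 0.161, and 25.1% of all genes had an unadjusted edgeR p under 0.05. The permutation test was not run on all genes.

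Gpam, on chromosome 19 (55067268 to 55127238, minus strand), opens the pathway. It was the least abundant member in reads, with 62 to 85 counts in each AD mouse and 7 to 51 in each mouse of the HF + AD group. The AD mice had 7.71, 6.42, 7.37, 6.46 and 5.61 CPM. The HF + AD mice ran from 0.609 to 4.16 CPM with a median of 3.00. All 7 HF + AD mice were below every AD mouse, with a clear gap between the groups. The means were 6.72 ± 0.837 CPM (SD, n = 5) and 2.67 ± 1.17 CPM (SD, n = 7), a log2 fold change of -1.33 with a standard error of 0.493, or 2.51-fold lower.

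For Gpam the tests diverged. The edgeR adjusted p was 0.10 (unadjusted p = 0.0154), and the two-sided exact permutation test on log2(CPM + 1) gave p = 0.00253, with 0.00126 the smallest it can give. DESeq2's Wald test on the same counts gave an adjusted p of 0.0317, and the adjusted p of the 18 alternative fits spanned 0.0317 to 0.263. Gpam thus did not pass the main test, although 2.56% of all genes tested were lower in HF + AD without overlap. Counting error alone gives a coefficient of variation of 11.9% in AD, where 12.5% was seen, and of 17.3% in HF + AD, where 43.8% was seen. The marker sums of muscle and fat given above were those of the same mice, and their part in the Gpam level was not tested.

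Dgat1 (chromosome 15, 76502015 to 76511953, minus strand) and Dgat2 (chromosome 7, 99153658 to 99182719, minus strand) add the last fatty acid and are unrelated in sequence. Dgat1 measured 42.2, 69.3, 52.2, 76.9 and 80.6 CPM in AD mice 1 to 5, and 46.2 to 100.2 CPM with a median of 55.3 in HF + AD. The ranges overlapped almost fully, and the log2 fold change was -0.031 (95% interval -0.47 to 0.41, edgeR adjusted p = 0.952), or 0.0057 after scaling by totals alone. Dgat2 measured 102, 17.6, 55.2, 40.7 and 54.5 CPM in AD mice, the widest spread of any member (coefficient of variation 57.2%). In HF + AD it ran from 31.7 to 73.5 CPM with a median of 38.9, inside the AD range. Its log2 fold change was -0.25 (95% interval -0.92 to 0.42, edgeR adjusted p = 0.678), and 0.11 without AD mouse 1.

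**Figure D2:**
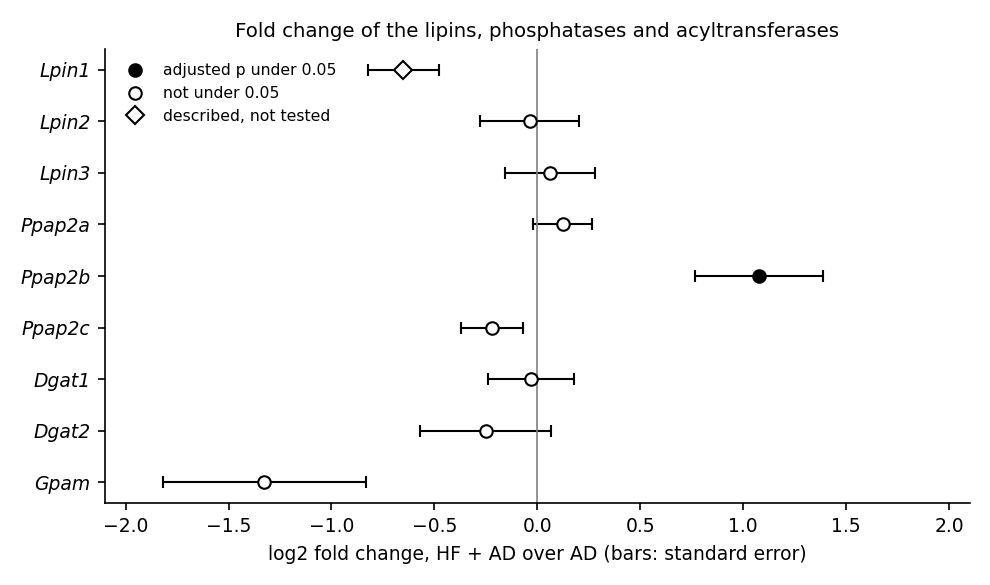
Difference of each member between HF + AD and AD as a log2 fold change on the horizontal axis (positive is higher in HF + AD). Points are the fit with all 12 mice, and bars its standard error, back-calculated from the log2 fold change and the edgeR test statistic. The filled point is a gene with an adjusted p under 0.05. The diamond is Lpin1, for which no test result is given, and its bar should not be read as one. Ppap2b lies at 1.08 and Gpam at -1.33, and the others lie between -0.65 and 0.12.

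The make-up of each family was described by the share of its reads on each member in a mouse. Such shares compare mice and not enzymes, since reads per gene depend on how its 3′ end is captured. Lpin1 took 43.1%, 32.4%, 24.9%, 33.4% and 30.9% of the lipin reads in AD mice 1 to 5, and 20.1% to 28.5% with a median of 20.7% in HF + AD. AD mouse 3 lay within the HF + AD range. Lpin3 took 50.8% ± 13.9 (SD, n = 5) in AD and 59.8% ± 4.64 (SD, n = 7) in HF + AD, and Lpin2 took 16.2% ± 8.06 and 17.2% ± 3.73. The lipin reads together came to 143 ± 21.5 CPM in AD and 129 ± 12.9 CPM in HF + AD, a difference smaller than the AD spread.

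Among the Ppap2 genes, Ppap2b took 25.6% to 44.7% of the reads in AD and 32.9% to 66.6% in HF + AD. The group means were 31.4% ± 7.67 (SD, n = 5) and 48.7% ± 11.9 (SD, n = 7). Ppap2c took 32.2% ± 6.91 in AD and 20.9% ± 4.98 in HF + AD, and Ppap2a 36.3% ± 4.08 and 30.4% ± 7.32. The summed level of the 3 genes was 146 ± 25.6 CPM in AD and 197 ± 45.1 CPM in HF + AD. Dgat1 took 56.5% ± 18.9 of the Dgat reads in AD and 57.8% ± 11.8 in HF + AD, so the balance of these enzymes differed far less between groups than between mice.

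**Figure D3:**
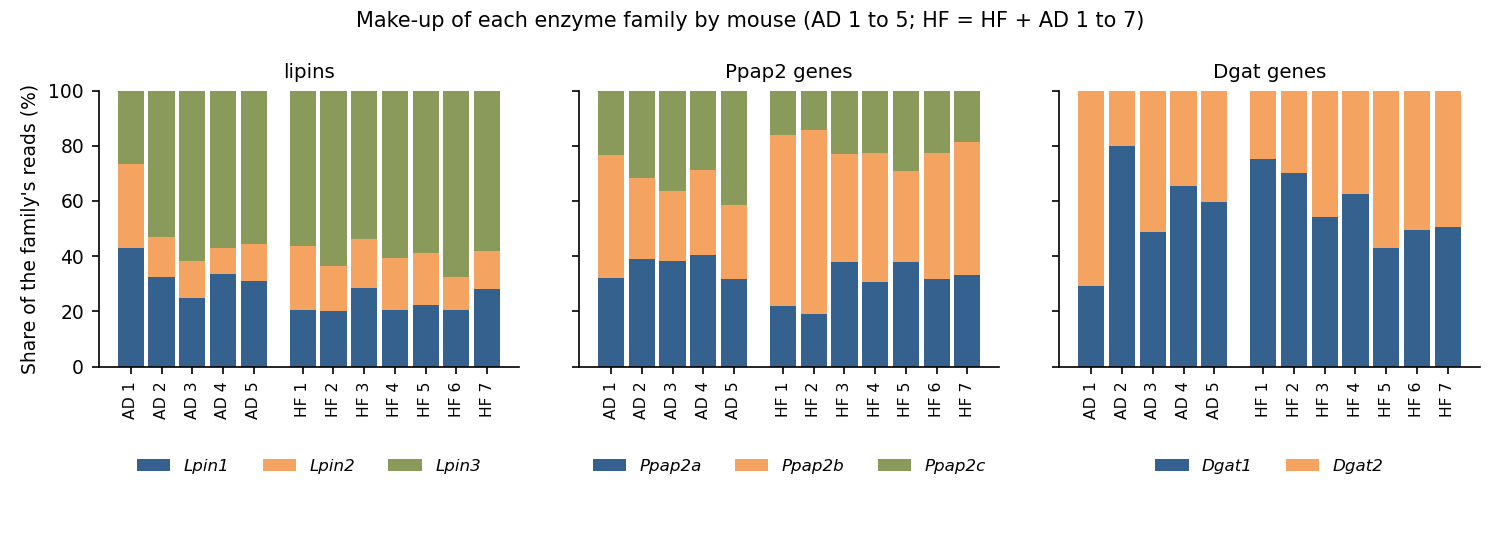
Share of family reads on each gene, in percent, for each mouse (stacked bars from 0 to 100; AD mice 1 to 5, then HF + AD mice 1 to 7), in separate panels for lipins, Ppap2 genes and Dgat genes. Ppap2b ranges from 25.6% to 66.6% of its family across all mice, and Lpin1 reaches its highest share, 43.1%, in AD mouse 1.

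The genes around this branch were described from 7 lists written by function, with 58 genes of which 51 were tested. Of these, 27 were higher and 24 lower in HF + AD. An unadjusted edgeR p under 0.05 was found for 17, beside 25.1% of all genes, and 6 were called (11.8%, beside 9.20% of all genes). Their median log2 fold change was 0.040, beside 0.023 for all genes tested and -0.038 for the 9 members. The called genes were Dgka, Dgkz, Awat1, Plin5, Pnpla2 and Lipe. The genes Gpat2, Dgkb, Dgkg, Dgkh, Dgki, Mogat1 and Mogat2 had too few reads for the test. The study singled out acyltransferase, diacylglycerol kinase and Cds genes on these mice, and its network picture shows Lipe, so their directions are no independent evidence.

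Phosphatidate is the lipin substrate, and it is made by acylation or from signaling lipids. In the acylation list, 4 of 7 genes were higher and 3 lower, none passed edgeR's adjusted test, 2 had an unadjusted p under 0.05, and neither DESeq2 nor limma called any. Its most abundant gene, Agpat6, a glycerol-3-phosphate acyltransferase despite its symbol, measured 89.5 ± 20.2 CPM in AD and 117.8 ± 15.8 CPM in HF + AD (log2 fold change 0.40, edgeR adjusted p = 0.113), and it was called when AD mouse 2 was left out (edgeR adjusted p = 0.0433). In the signaling list (phospholipase D and diacylglycerol kinases, which turn diacylglycerol back into phosphatidate), 3 of 7 genes were higher and 4 lower, with 1 call each way. Dgkz rose from a median of 31.1 CPM in AD (15.4 to 51.8) to 63.7 CPM in HF + AD (46.5 to 74.2), a log2 fold change of 0.94 (edgeR adjusted p = 0.0216). Of single mice left out, only HF + AD mouse 2 undid this call (edgeR adjusted p = 0.0544). Dgka fell without overlap, from a median of 261 CPM in AD (255.7 to 320.3) to 185 CPM in HF + AD (159 to 242). Its log2 fold change was -0.45 (edgeR adjusted p = 0.0475), and among fits without 1 mouse the call stood only without HF + AD mouse 3 or 5, with an adjusted p of up to 0.108 in the other 10. With all mice, the Dgka call was also lost when libraries were scaled by totals alone (edgeR adjusted p = 0.0720) and with no filter on low counts (0.0604).

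Phosphatidate and diacylglycerol can also leave for phospholipids. Of 6 genes in this list, 1 was higher and 5 lower, none was called by edgeR with all mice and the main settings, and 3 had an unadjusted p under 0.05. Cds1, a synthase of CDP-diacylglycerol, measured 219 ± 42.8 CPM in AD and 153 ± 32.0 CPM in HF + AD (log2 fold change -0.52, edgeR adjusted p = 0.0511). It was called by DESeq2's Wald test and limma, and by edgeR with DESeq2's size factors, with at least 10 counts in every mouse, or on omission of AD mouse 1 or of HF + AD mouse 5. Of 8 genes that control lipins, by phosphatase action or as transcription factors and coactivators, 7 were higher and 1 lower, none was called by edgeR, DESeq2 or limma, and 2 had an unadjusted edgeR p under 0.05. The median of that list was 0.38, and its most abundant gene Nr3c1, the glucocorticoid receptor, had a log2 fold change of 0.18 (edgeR adjusted p = 0.517).

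**Figure D4:**
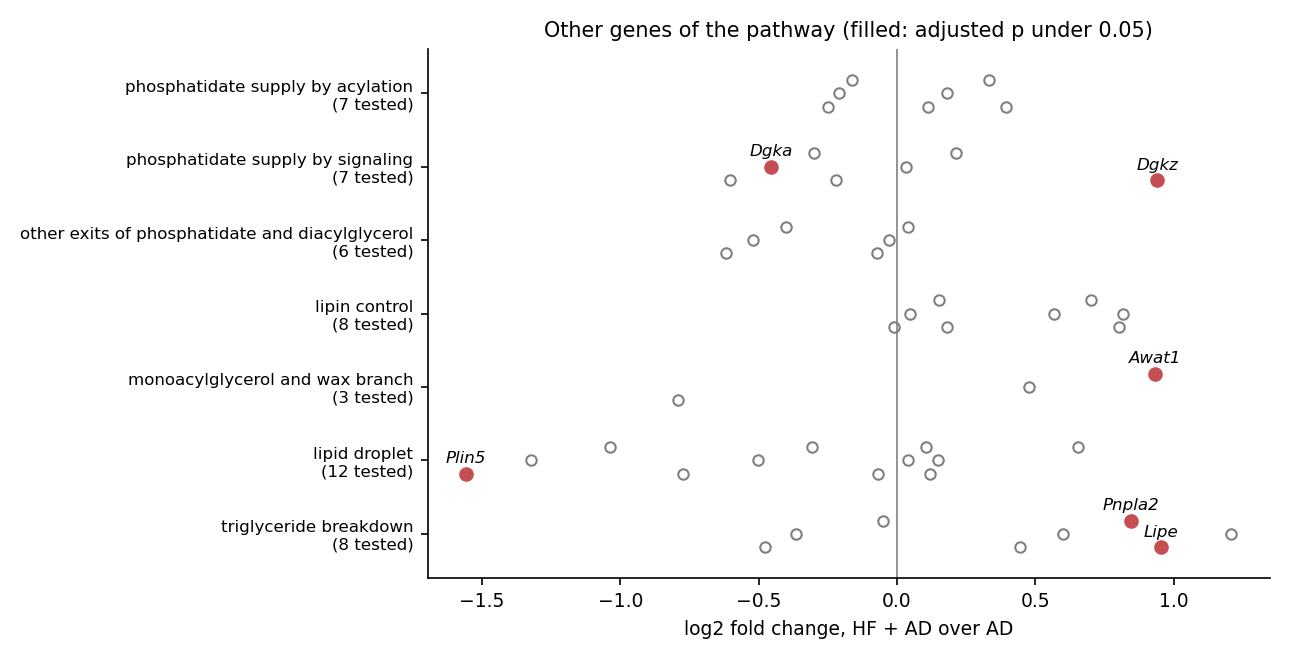
Log2 fold changes on the horizontal axis (HF + AD over AD) of the tested genes of the 7 pathway lists, 1 point per gene, with called genes filled and named; vertical position within a list only separates the points. The 51 genes lie on both sides of 0, with Plin5 at -1.56 the lowest called gene and Lipe at 0.95 the highest.

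Beyond the Dgat step, the wax branch uses related acyltransferases of sebaceous glands. Of 3 genes tested, 2 were higher and 1 lower. Awat1, a wax alcohol acyltransferase, rose from a median of 77.8 CPM in AD (42.7 to 94.8) to 145 CPM in HF + AD (91.8 to 204). Its log2 fold change was 0.93 (edgeR adjusted p = 0.0179), and the call held whichever mouse was left out. Awat1 is also on the sebocyte marker list, of whose 7 tested genes 2 were higher and 5 lower, with 1 call each way. The summed sebocyte markers were 1714 to 2993 CPM in AD and 1474 to 2467 CPM in HF + AD, led by Scd1, a fatty acid desaturase (median 2173 and 1073 CPM).

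Genes of the lipid droplet, where triglyceride is stored, were higher for 5 and lower for 7 of 12. Plin5, a droplet coat protein, was the called one and fell from a median of 11.8 CPM in AD (5.25 to 15.2) to 3.66 CPM in HF + AD (2.03 to 5.49). The groups overlapped slightly, and the log2 fold change was -1.56 (edgeR adjusted p = 0.0248), lost without AD mouse 2 (edgeR adjusted p = 0.0503) or HF + AD mouse 2 (0.0573). The abundant coat gene Plin2 measured 458 ± 87.2 CPM in AD and 370 ± 61.7 CPM in HF + AD (log2 fold change -0.31, edgeR adjusted p = 0.226).

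Among 8 genes of triglyceride breakdown, 5 were higher and 3 lower, and 2 lipases were called, beside 9.20% of all genes. Pnpla2, which removes the first fatty acid from triglyceride, rose from a median of 28.7 CPM in AD (20.1 to 38.3) to 54.8 CPM in HF + AD (33.2 to 62.5). Its log2 fold change was 0.85 (edgeR adjusted p = 0.0204), lost, of single mice left out, only without HF + AD mouse 2 (edgeR adjusted p = 0.0524). Lipe, the hormone-sensitive lipase that acts mainly on diacylglycerol, rose from a median of 21.1 CPM in AD (6.36 to 22.4) to 32.0 CPM in HF + AD (22.6 to 47.1). The Lipe groups did not overlap, as for 2.90% of all genes in that direction, and its log2 fold change was 0.95 (edgeR adjusted p = 0.0456). Among the 12 fits that left out 1 mouse, this call stood in 4 (omitting AD 1, AD 4, HF + AD 5 or HF + AD 6), with an adjusted p of up to 0.103 elsewhere. Mgll, the monoglyceride lipase, was the most abundant of the list, at 1003 ± 217 CPM in AD and 968 ± 247 CPM in HF + AD (log2 fold change -0.051, edgeR adjusted p = 0.897).

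Markers of other skin cells were summed in the same way. Keratinocyte markers summed to 2920 to 4831 CPM in AD and 5396 to 9718 CPM in HF + AD without overlap, with 3 of 4 genes higher and 2 called. Hair shaft keratins, led by Krt81, summed to 2574 to 5274 CPM in AD and 3971 to 6581 CPM in HF + AD, with 7 of 8 higher and 3 called. The calls of both lists were higher in HF + AD, beside 4.43% of all genes tested called higher. Fibroblast markers, led by Col1a1, summed to 2975 to 8573 CPM and 2627 to 8219 CPM, with overlap, 4 of 5 genes higher and no call, although the median sum was 4162 CPM in AD and 3723 CPM in HF + AD. Macrophage markers, led by Csf1r, summed to 13.1 to 41.7 CPM and 16.1 to 78.1 CPM, also with overlap. None of these markers was at 0 throughout a group, and their part in the levels of the 9 members was not tested.

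**Figure D5:**
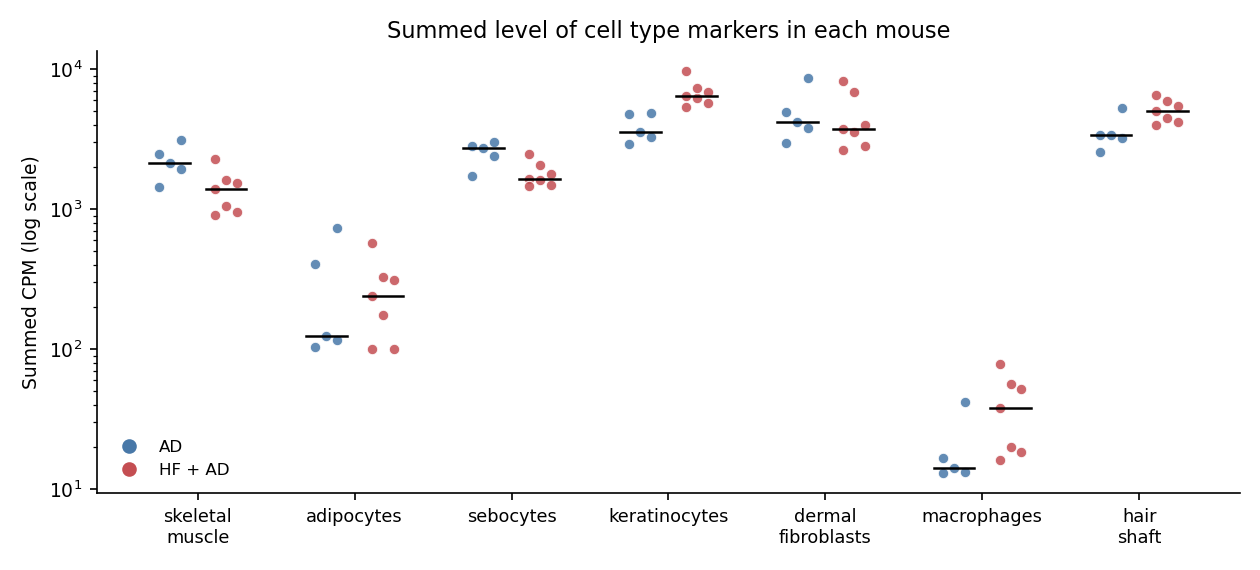
Summed CPM of 7 cell type marker lists in single mice, 1 dot per mouse, for AD (5) and HF + AD (7), on a log axis, with lines at the group medians. Keratinocyte sums separate the groups, and skeletal muscle sums span 1436 to 3119 CPM in AD and 907 to 2299 CPM in HF + AD.

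The genes that followed each member most closely from mouse to mouse were sought among 11646 genes with a mean count of at least 50, by Pearson's r over 12 mice after the group means of log2(CPM + 1) were subtracted. All points share library, depth and composition, and the genes were picked as the highest, so the values describe these mice only. Lpin1 was followed most closely by Hoxd3os1 (r = 0.96), Psmb8 (r = 0.94) and Fam171a2 (r = 0.94), each at 0.93 or above after the 2 mice farthest from the median were left out. Ppap2b was followed by Vps72 (r = 0.93), Mcrs1 (r = 0.92) and Gpx1 (r = 0.91), which stayed at 0.86 or above. Dgat1 was followed by Tpm3 (r = 0.96) and Rpsa (r = 0.93). For Lpin3 they were Armc8, Spsb4 and Stx19 (r = 0.96 each), and for Dgat2 Them6 (r = 0.95), Kif26b (r = 0.95) and Diap2 (r = 0.94). Without the 2 farthest mice those of Lpin3 lay at 0.80 to 0.84 and those of Dgat2 at 0.80 to 0.86. For Ppap2a they were Ctdsp1 (r = 0.88), Phf12 and Ccl2 (r = 0.85 each), and for Lpin2 Fam173b, Xrcc4 (r = 0.88 each) and Ghitm (r = 0.87), which fell to between 0.56 and 0.61 without the 2 farthest mice. Ppap2c was followed by Entpd4 (r = 0.89), Zfpm1 (r = 0.84) and Usp9x (r = 0.82), which fell to 0.50, 0.68 and 0.63 without the 2 farthest mice. Gpam, with its low counts, had the weakest followers, Hk1 (r = 0.84), Col17a1 (r = 0.79) and N4bp2l1 (r = 0.78). Without the 2 farthest mice these fell to 0.71, 0.34 and 0.43. Between the members themselves r lay between -0.58 and 0.60 over the 36 pairs, highest for Lpin1 with Ppap2a and lowest for Lpin2 with Lpin3. These pairs were not picked as the highest, so their r cannot be set against those above.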

How the data were processed

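RNA of whole skin (500 ng of total RNA per mouse) was made into QuantSeq 3′ end libraries and sequenced on a NextSeq 500. The authors deposited a table of raw counts for each mouse, listed by gene symbol and not normalized. Per the labels, submitters' processing notes name Bowtie2, bedtools and mm10, and the versions, annotation and strand setting are not given in the sources used here. Of 23282 entries, 35 symbols were listed more than once and were kept apart. Groups came from the labels, which give no batch, and no 2 libraries agreed within sampling noise. The labels name each library as its own sample, and p-values measure the spread between these samples.

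Counts were analysed with edgeR 4.0.16 in R 4.3.3 (filterByExpr, TMM, quasi-likelihood fit on group alone; p-values adjusted over 14163 genes by Benjamini-Hochberg, with a threshold of 0.05). CPM used TMM-scaled totals of the genes kept by the filter. Standard errors were back-calculated from the log2 fold change and the quasi-likelihood F statistic, and the intervals were built on them. Two-sided exact permutation tests ran over all splits of 12 mice into 5 and 7 on log2(CPM + 1) for members other than Lpin1. Alternatives were DESeq2 1.42.0 (size factors, Wald test), totals alone, no filter, at least 10 counts in every mouse, limma 3.58.1, a replicate block, omission of each mouse, and a pseudocount of 0.1 in place of 1. A count of 0 allows 3 counts, 0.223 to 0.308 CPM on unscaled totals of all genes, for counting error only. Steps were tested on simulated data.

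The members and lists were chosen with earlier results of these data known. Named were all members, pathway genes called (up to 12), the most abundant gene of each list and marker list, and the 3 genes most alike each member, of which 1 is not reported here. Bscl2, Cidea, Plin1 and Cds2 fall outside this rule and were named after their values were seen. Positions are from GENCODE M21 (GRCm38), and promoters from RefSeq (GRCm38.p6). Figures and other steps used Python 3.11.15, NumPy 2.4.6, SciPy 1.17.1, pandas 2.3.3 and matplotlib 3.10.9.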

Additional observations from a re-analysis of the deposited data

Results flagged for a closer look

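Dixon's test for a single sample that stands far from its group (n = 4 to 10) was applied to 32 groups of values and picked out 3, where chance alone picks out about 1 in 20 groups. Lpin3 in AD mouse 1 was 4.99 on the log2(CPM + 1) scale, lower than in the other 4 AD mice, with a gap of 0.80 of the group's whole range. Ppap2c in AD mouse 5 was 5.91 on the same scale, higher than in the others, with a gap of 0.87 of the range. The summed macrophage markers of AD mouse 1 came to 41.7 CPM, against 13.1 to 14.1 CPM at the bottom and middle of that group, with a gap of 0.87 of the range. AD mouse 1 was also the highest of its group for Dgat2 (102 CPM), Ppap2b (84.1 CPM) and the fibroblast marker sum (8573 CPM). What set this mouse apart was not tested.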

How the results depend on the processing

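Lpin1 stayed lower under all 19 alternatives (log2 fold change -0.74 to -0.57), Ppap2a and Ppap2b stayed higher, and Ppap2c and, where tested, Gpam lower. Lpin1 was picked for its fall in these same mice, so its steady sign is no evidence. Genes called ranged from 639 to 1461 as single mice were left out, members other than Lpin1 called from 0 to 1, and pathway genes called from 1 to 7. DESeq2's Wald test called 2 such members, Ppap2b and Gpam, and 1945 genes. It and limma-trend also called Cds1 and Bscl2 among pathway genes, and some edgeR alternatives called Cds1. As single mice were left out, edgeR also called Bscl2 without AD mouse 5, Cidea without AD mouse 1, and Agpat6 and Plin1 without AD mouse 2. With at least 10 counts in every mouse Gpam could not be tested. The sign of Lpin2 turned to 0.015 with totals alone and 0.024 with limma-trend, that of Dgat1 to 0.0057 with totals alone, and as single mice were left out Lpin2 ranged from -0.18 to 0.18, Lpin3 from -0.13 to 0.15, Dgat1 from -0.18 to 0.074 and Dgat2 from -0.47 to 0.11. The cause was not tested. limma-trend moved the median log2 fold change of all genes by 0.13 and the replicate block by 0.12. With a pseudocount of 0.1 the difference in mean log2 level of Gpam went from -1.15 to -1.46, and for the other 7 members tested it moved by less than their SD between mice. Depth limits Gpam most, with as few as 7 counts in a mouse.

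Equal replicate numbers did not pair the mice (r between -0.12 and 0.083 over 5 pairs, none above 0.1, and 1 of 5 AD mice correlated best with its own number). With the replicate number as a block, 192 genes, 0 members other than Lpin1 and 0 pathway genes were called, with 1 and 11 at an unadjusted p under 0.05. HF + AD mice 6 and 7 have no AD mouse of the same number, so they add nothing to the group difference in that fit. Its block terms also leave less data to estimate the spread from, so its count of calls does not measure pairing alone. In that block fit, Ppap2b was at 1.09 (edgeR adjusted p = 0.0596), and Lpin2 and Dgat1 turned sign, to 0.14 and 0.040.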
